A study of Mus musculus with 4 samples.

Results

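The 8 genes described here make up the core of mouse MHC class II antigen presentation: H2-Aa, H2-Ab1, H2-Eb1, H2-DMa, H2-DMb1, H2-DMb2, Cd74 and Ciita. They were found by symbol among the 32286 genes counted in single cells of the distal jejunum, and all 8 were counted in each of the 4 mice. They were chosen by values measured in these same libraries, namely lower levels of H2-Aa and H2-Eb1 in macrophages of EC-Foxc-DKO mice. The macrophage values of the 2 genotypes are therefore given as a description, with no test.

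MHC class II molecules display peptides from engulfed or surface proteins to CD4+ T cells. An alpha chain and a beta chain pair in the endoplasmic reticulum around the invariant chain, are carried to endosomes where proteases trim the invariant chain to a short stub, and exchange that stub for a peptide with the help of the chaperone H2-DM. B cells, macrophages and dendritic cells make class II constitutively or on activation, and absorptive enterocytes of the intestine carry it too and raise it under interferon gamma. Ciita, the transactivator, is the master switch of the whole set.

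All 4 mice were adult, carried floxed alleles of Foxc1 and Foxc2, and were sampled 18.5 h after surgery in which blood flow to the small intestine was stopped and restored (ischemia and reperfusion, I/R). The 2 controls (Foxc1fl/fl;Foxc2fl/fl) had no Cre, and the 2 EC-Foxc-DKO mice (Cdh5-CreERT2;Foxc1fl/fl;Foxc2fl/fl) carried a tamoxifen-activated Cre under the endothelial Cdh5 promoter, so that the deletion was directed at endothelial cells and not at the cells that carry most class II. Each mouse gave 1 library of transcripts tagged at their 3′ end, in which a unique molecular identifier (UMI) stands for 1 captured molecule whatever the length of the gene. The study asked what endothelial Foxc1 and Foxc2 do in the recovery of the gut after such injury, and no uninjured mouse was analysed here.

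The 4 libraries differed in depth and quality. They held 3623 to 7347 barcodes and 15557181 to 72046346 UMIs, and the median share of mitochondrial UMIs per barcode ran from 15% in EC-Foxc-DKO 1 to 54.0% in control 2. Barcodes with at most 10% mitochondrial UMIs were kept, which left 1446, 348, 2742 and 1079 cells in control 1, control 2, EC-Foxc-DKO 1 and EC-Foxc-DKO 2, or 5615 of 22679. Of 51 barcodes that stood in 2 libraries, 2 were kept in both. In endothelial cells Foxc1 gave 2 and 9 UMIs in the controls, against 1 and 0 in the EC-Foxc-DKO mice, Foxc2 gave 0 in every mouse, and Cre UMIs were counted in the 2 EC-Foxc-DKO libraries alone. These counts go with the labels but are too few to measure how far the deletion went. Cell type names below were rebuilt from marker genes, with the class II genes left out of the clustering, so each name means "like" that type and can differ from the study's own.

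Class II promoters are known for a conserved module of an X box, bound by the RFX complex, and a Y box, bound by NF-Y, on which Ciita assembles. Promoters are shown from RefSeq (GRCm38.p6), each with 250 bases before the start and 50 after it. H2-Aa and H2-Eb1 are the chains whose levels led the choice of genes. H2-DMb1 and H2-DMb2 are related chaperone chains, which cell types used differently. The capitals mark the Y box core GATTGG and the X box core AGCAAC, searched on both strands, with a match on the opposite strand reading CCAATC or GTTGCT.
H2-Aa, chr17:34287774-34288073, minus strand: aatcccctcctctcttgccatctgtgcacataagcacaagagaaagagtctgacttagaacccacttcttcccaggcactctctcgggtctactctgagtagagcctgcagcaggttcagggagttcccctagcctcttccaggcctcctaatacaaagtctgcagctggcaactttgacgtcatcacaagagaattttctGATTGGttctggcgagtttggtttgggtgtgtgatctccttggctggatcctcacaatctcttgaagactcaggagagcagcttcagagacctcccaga
H2-Eb1, chr17:34305617-34305916, plus strand: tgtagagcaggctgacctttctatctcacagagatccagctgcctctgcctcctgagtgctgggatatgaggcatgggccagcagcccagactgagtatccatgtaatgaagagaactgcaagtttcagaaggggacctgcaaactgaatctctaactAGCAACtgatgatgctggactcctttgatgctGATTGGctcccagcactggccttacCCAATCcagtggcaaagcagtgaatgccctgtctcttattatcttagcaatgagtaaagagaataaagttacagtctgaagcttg
H2-DMb1, chr17:34152941-34153240, plus strand: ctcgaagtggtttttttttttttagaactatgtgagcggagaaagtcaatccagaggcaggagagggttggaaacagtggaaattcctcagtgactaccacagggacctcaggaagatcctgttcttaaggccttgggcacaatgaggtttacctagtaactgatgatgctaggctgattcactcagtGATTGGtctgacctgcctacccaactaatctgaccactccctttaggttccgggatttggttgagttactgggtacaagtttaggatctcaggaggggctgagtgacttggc
H2-DMb2, chr17:34144999-34145298, plus strand: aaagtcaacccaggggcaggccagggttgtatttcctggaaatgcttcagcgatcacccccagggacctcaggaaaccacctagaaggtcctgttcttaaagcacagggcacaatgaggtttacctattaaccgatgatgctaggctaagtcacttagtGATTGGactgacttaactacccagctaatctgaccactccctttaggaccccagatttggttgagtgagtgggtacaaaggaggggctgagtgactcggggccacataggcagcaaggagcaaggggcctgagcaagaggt

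Only exact matches to the 2 cores were sought, so a box with other letters goes unmarked and a missing mark does not mean a missing box. The Y box core began 49 bases before the start of H2-Aa, 62 before that of H2-DMb1 and 91 before that of H2-DMb2. H2-Eb1 held the X box core 92 bases before the start, a Y box core at 60 and a second one on the opposite strand at 35. Of 2 annotated H2-DMa promoters, 1 held a Y box core, 199 bases before its start, and the other held neither motif. Among other class II chains, the promoters of H2-Oa, H2-Ob and H2-Eb2 held both motifs. Over all 32851 promoters of the same length, 16.11% held GATTGG, 14.79% held AGCAAC and 2.636% held both. H2-Ab1 and Ciita were not matched in the promoter table.

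Of the 8 genes, 6 lie in the major histocompatibility locus of chromosome 17. In the GRCm38 build with GENCODE vM21 annotation, the locus runs from H2-DMa (chr17:34119541-34139101, plus strand) through H2-DMb2 (chr17:34143307-34151555, plus), H2-DMb1 (chr17:34153072-34160230, plus), H2-Ab1 (chr17:34257689-34269419, plus) and H2-Aa (chr17:34282744-34287823, minus) to H2-Eb1 (chr17:34305867-34316674, plus). Cd74 (chr18:60803848-60812652, plus) and Ciita (chr16:10480059-10528418, plus) lie elsewhere. H2-DMa overlaps Brd2 on the opposite strand over 3094 bases, Ciita overlaps Dexi on the opposite strand over 25888 bases, and H2-Eb1 overlaps Gm20513 on the opposite strand over 2204 bases. On its own strand H2-DMa overlaps CR974462.3 over 591 bases and Cd74 overlaps Mir5107 over 88 bases, where reads could be assigned to either gene.

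B cells and macrophages held more of the class II UMIs than their share of the cells, and epithelial cells held less than theirs. B cells were 26.4% of the kept cells and held 51.6% of the UMIs of the 8 genes. Macrophages were 7.21% of the cells and held 20.7%. Epithelial cells were 43.7% of the cells and held 22.6%. T cells, which were 9.31% of the cells, held 0.153%. These shares pool the 4 mice, and 1275 of the 1483 B cells came from EC-Foxc-DKO 1. Cd74 gave 5925, 995, 65938 and 1078 UMIs in follicular B cells of control 1, control 2, EC-Foxc-DKO 1 and EC-Foxc-DKO 2. In macrophages it gave 10662, 4525, 9945 and 2842, so follicular B cells held more of it than macrophages in EC-Foxc-DKO 1 alone. Cd74, which encodes the invariant chain, was the most abundant of the 8 genes, with 151933 UMIs in the kept cells, and was counted in 72.2% of them. The classical chains followed at 47772 UMIs for H2-Ab1, 47457 for H2-Aa and 32694 for H2-Eb1. The chaperone chains were lower, at 6652 UMIs for H2-DMa, 3738 for H2-DMb1 and 2907 for H2-DMb2, and the transactivator Ciita was the lowest at 2014.

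Levels are given as CPM, a scale on which all UMIs counted in the same cells of the same mouse add up to 1000000, and all intervals on them cover counting error only. The summed level of the 8 genes was 26222 ± 4068 CPM in follicular B cells (mean ± SD, n = 4 mice), 20173 ± 8868 in macrophages (n = 4) and 11944.5 ± 787 in germinal center B cells (n = 2). Plasma cells followed at 4205 ± 2498 CPM (n = 2) and middle enterocytes at 1730 ± 643 (n = 3). Both mice with at least 10 germinal center cells or plasma cells were EC-Foxc-DKO, so these means are over 2 mice of 1 genotype and those of follicular B cells and macrophages over all 4. Along this order of 21 cell types, the only neighbours whose ranges over mice did not overlap were germinal center B cells and plasma cells. Gamma delta T cells, at 106 ± 29.2 CPM (n = 4), and erythroid cells, at 64.3 ± 39.0 CPM (n = 2), closed the order.

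**Figure D1:**
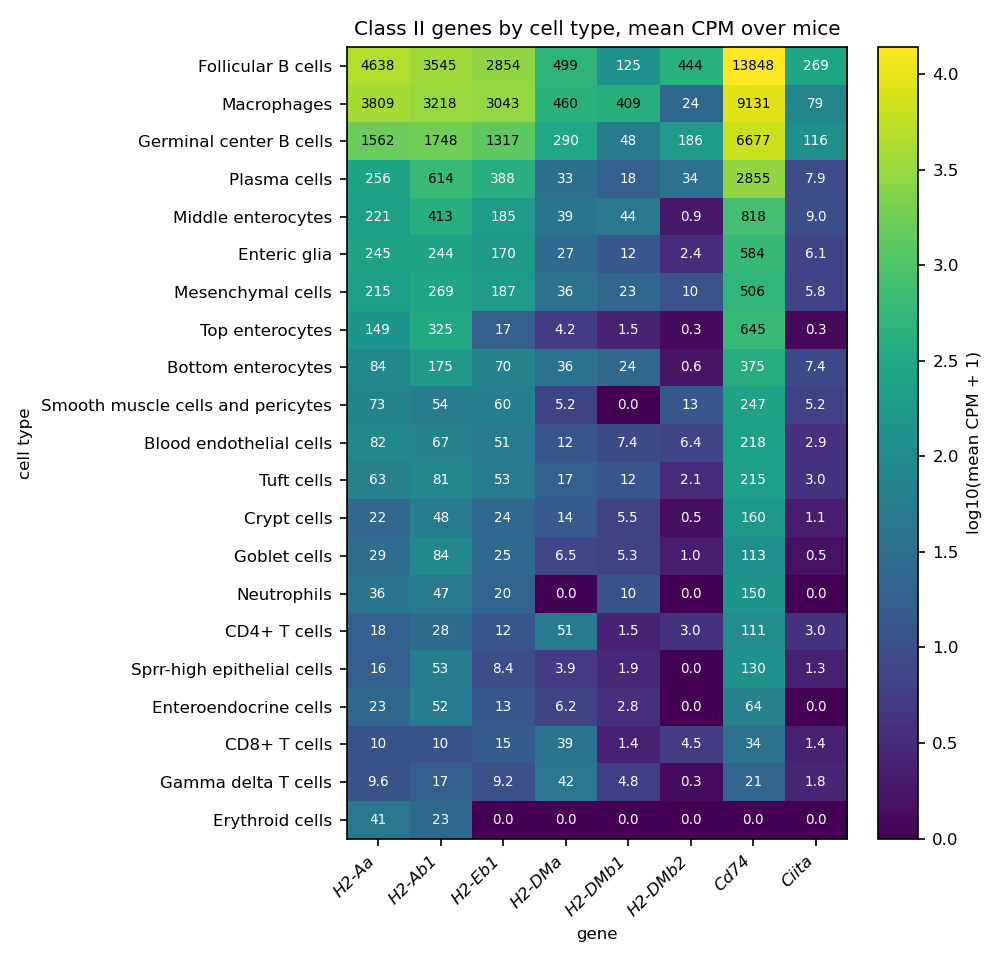
Mean level of each of the 8 genes (columns, CPM, colour on a log10 scale) in 21 cell types (rows), averaged over mice with 10 or more cells of the type. Follicular B cells and macrophages carried the highest levels of the classical chains and Cd74, and H2-DMb2 was highest in the B cell types.

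**Figure D2:**
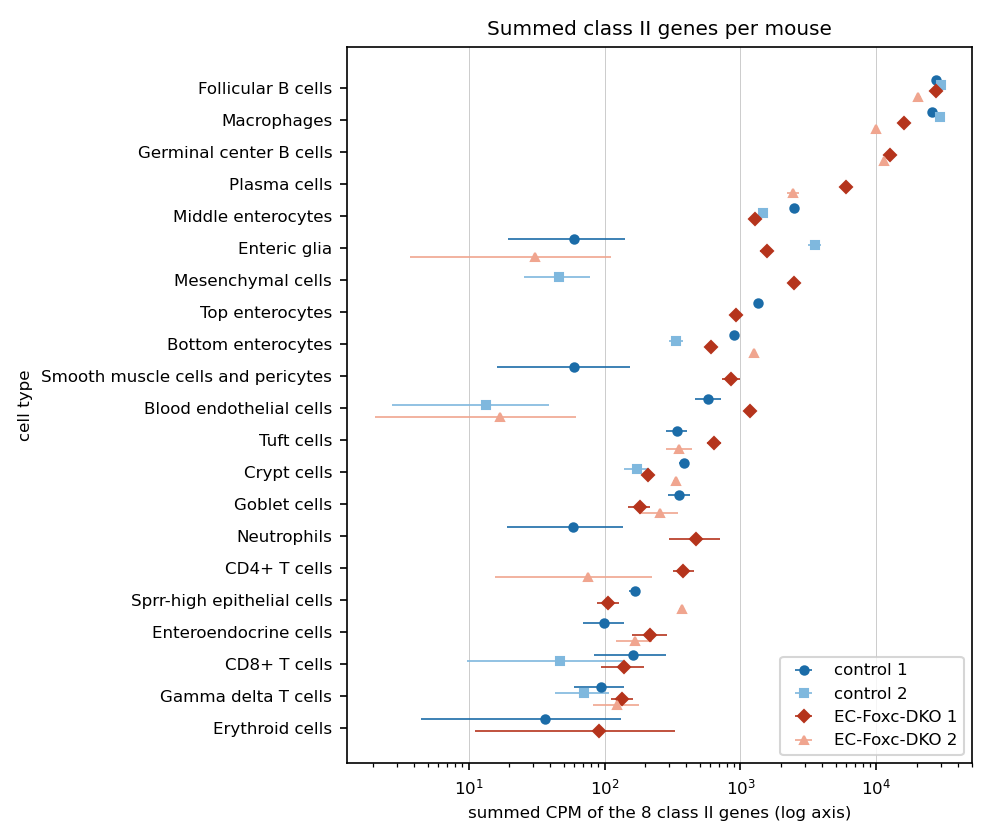
Summed level of the 8 genes in each mouse (CPM, log axis) by cell type, for types with 10 or more cells in that mouse, with exact 95% Poisson intervals of the summed counts. Follicular B cells lay between 20360 and 29770 CPM, whereas glia, mesenchymal and endothelial cells spread widely over mice.

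Follicular B cells, named for the B cells of lymphoid follicles, carried the set at a similar level in 3 of the 4 mice. They numbered 124, 17, 1207 and 33 cells in control 1, control 2, EC-Foxc-DKO 1 and EC-Foxc-DKO 2, so that most of them came from 1 mouse. H2-Aa stood at 5015, 4993, 4687 and 3858 CPM in the same order. H2-Ab1, its beta chain partner, stood at 3902, 4206, 3640 and 2433 CPM. EC-Foxc-DKO 2 was the lowest mouse for both chains, and the other 3 mice lay close together. H2-Eb1, the beta chain of the second class II molecule, stood at 3029, 3481, 2991 and 1914 CPM. Cd74 stood at 14063, 15673, 14683 and 10974 CPM. Ciita gave another order, with 282, 236, 221 and 336 CPM, and EC-Foxc-DKO 2 was the highest mouse there. Germinal center B cells, the dividing cells that mutate their antibody genes, numbered 68 and 23 in the EC-Foxc-DKO mice and 7 and 4 in the controls. Their Cd74 level was 7102 and 6252 CPM in the EC-Foxc-DKO mice against 11919 and 20957 in the few control cells.

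In the B cell class as a whole, follicular and germinal center cells together, all 8 genes lay below both controls in both EC-Foxc-DKO mice, and none of them passed the test. The summed level was 27032 and 32089 CPM in the controls, against 25229 and 14050 in the EC-Foxc-DKO mice. Of all 4704 genes tested, 21.2% lay below both controls in the same way and 14.2% lay above them. The edgeR quasi-likelihood test called 0 genes after Benjamini-Hochberg adjustment, 168 had an unadjusted p under 0.05, and DESeq2 called 2. The log2 fold changes of the 8 genes ran from -0.63 (SE 0.40) for H2-DMb1 to -0.26 (SE 0.31) for Ciita, with a median of -0.53 against -0.00 over all genes, and each had an edgeR adjusted p of 0.9985. Germinal center cells were 23 of the 56 B cells of EC-Foxc-DKO 2, and in that mouse their summed level was 11388 CPM against 20360 in follicular cells. The B cell genes Cd79a, Cd79b and Ms4a1 were lower in the same mouse, with a summed 3144 CPM against 5079 and 5728 in the controls and 5023 in EC-Foxc-DKO 1. The part of the cell mix in the levels of the B cell class was not tested. In follicular B cells alone, 4 of the 8 genes (H2-Aa, H2-Ab1, H2-Eb1 and H2-DMb1) lay below both controls, against 19.0% of the 3390 genes tested, and the median log2 fold change was -0.15 against -0.02 over all genes. That fit called 0 genes, with 58 at an unadjusted p under 0.05.

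The 2 copies of the H2-DM beta chain divided by cell type. H2-DMb2 made up 79.1%, 70.0%, 80.4% and 85.0% of the summed H2-DMb1 and H2-DMb2 UMIs in follicular B cells of control 1, control 2, EC-Foxc-DKO 1 and EC-Foxc-DKO 2. In macrophages it made up 4.24%, 2.61%, 5.94% and 12.4%. The lowest exact 95% bound of a mouse was 53.5% in follicular B cells, and the highest upper bound of a mouse was 18.1% in macrophages, so the 2 cell types did not overlap in any mouse. Germinal center B cells were on the side of follicular cells, at 82.9% over all mice (48 H2-DMb1 and 232 H2-DMb2 UMIs). Enterocytes were on the side of macrophages: H2-DMb2 made up 0.202% in middle enterocytes of control 1, and 0.845% and 0.635% in bottom enterocytes of control 1 and EC-Foxc-DKO 2. In EC-Foxc-DKO 1, the mouse with the most B cells, the shares in those enterocytes were 7.94% and 8.80%. Plasmacytoid dendritic cells lay between, at 25.4% (15 of 59 UMIs, exact 95% interval 14.98% to 38.4%). Of the 15 H2-DMb2 UMIs, 11 came from the 12 cells of EC-Foxc-DKO 1 (32.4%) and 4 from control 1 (21.1%). Set at the ratio of Cd74 to Cd79a, Cd79b and Ms4a1 in B cells, B cell RNA there came to 47.3% and 1.10% of the Cd74. Its part in the H2-DMb2 share was not tested. Over the whole series 91.1% of H2-DMb2 UMIs fell in B cells, whereas 42.4% of H2-DMb1 UMIs fell in epithelial cells, 36.0% in macrophages and 17.2% in B cells. The partner chain H2-DMa was high in both cell types, at 487, 551, 519 and 438 CPM in follicular B cells and 493, 598, 437 and 311 CPM in macrophages.

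The stretches that the copies share bear on these values. Of 50-base windows along the H2-DMb1 transcript, 27.2% occur in H2-DMb2 as well, and in the last 500 bases, where the libraries take most of their reads, 20.4% do. Reads from those windows cannot be assigned to 1 copy. H2-DMb2 shares 25.2% of its windows, but none of its last 451. Other B cell class II chains divided in the same direction. H2-Oa and H2-Ob, which form the H2-DM inhibitor H2-O, stood at 266 to 425 CPM and 331 to 499 CPM in follicular B cells, and at 5.4 to 19.6 CPM and 0 to 9.82 CPM in macrophages. H2-Eb2, a further beta chain, stood at 158 to 237 CPM in follicular B cells and 0 to 6.66 CPM in macrophages.

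**Figure D3:**
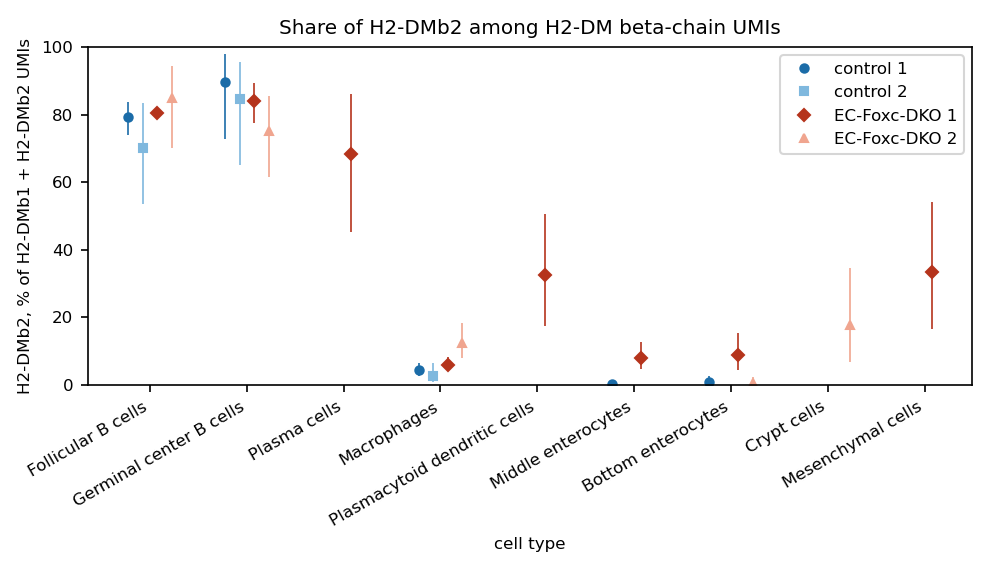
Share of H2-DMb2 in the summed UMIs of H2-DMb1 and H2-DMb2 (percent) in each mouse by cell type, for mice and types with 20 or more such UMIs, with exact 95% binomial intervals. B cells lay at 70.0% to 89.7%, macrophages and enterocytes at 0.202% to 12.4%.

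Macrophages held the set at 25718 and 29186 CPM in the controls, against 15891 and 9896 CPM in the EC-Foxc-DKO mice. H2-Aa stood at 4818 and 5937 CPM against 2869 and 1612, and H2-Eb1 at 3815 and 5042 CPM against 2055 and 1262. These 2 genes were the values behind the choice. H2-Ab1 stood at 4414 and 4282 CPM against 2521 and 1655, and Cd74 at 11503 and 12774 against 7515 and 4731. Ciita stood at 89.6 and 121 CPM against 74.8 and 28.3, H2-DMa at 493 and 598 against 437 and 311, and H2-DMb1 at 560.0 and 421 against 395 and 259.7. For these 7 genes both EC-Foxc-DKO mice lay below both controls, as did 13.9% of all 6880 genes of the macrophage fit, which called 0 genes by edgeR, with 149 at an unadjusted p under 0.05 and 0 by DESeq2. H2-DMb2 lay the other way, at 24.8 and 11.3 CPM against 24.9 and 36.6, on 4 to 33 UMIs per mouse. Of all genes of that fit, 16.9% lay above both controls. With the mitochondrial limit at 20%, the mean difference of H2-DMb2 turned to -7.89 CPM. After each cell was thinned to 1000 UMIs, 69.0% and 83.2% of control macrophages had an H2-Aa UMI, against 66.4% and 39.7% of EC-Foxc-DKO macrophages, and without thinning the shares were 75.0% and 95.2% against 72.9% and 55.1%. EC-Foxc-DKO 1 and control 1 thus lay close together in the share of positive cells and apart in the CPM.

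The macrophage class was made of 4 clusters, filled differently in the 4 mice. Cells led by Ccl6, Ccl9 and Arg1, the last an arginine-degrading enzyme of wound macrophages, were 24 of 104, 2 of 42, 34 of 170 and 55 of 89 macrophages in control 1, control 2, EC-Foxc-DKO 1 and EC-Foxc-DKO 2. Their summed class II level varied least over mice, at 8500, 9691, 8927 and 7779 CPM. EC-Foxc-DKO 2, the mouse with the lowest class II level, was thus the one with the most cells of that cluster. Cells led by Ccr2 and Chil3, genes of recently arrived monocytes, were 42.3%, 11.9%, 26.5% and 20.2% of macrophages. They held the highest level, at 39363, 52398, 26758 and 17001 CPM, and here both EC-Foxc-DKO mice lay below both controls, with 5 cells in control 2. Cells led by Fcrls, Cbr2, Mgl2 and Cd163, genes of resident macrophages, were 69.0% of macrophages in control 2 and at most 13.5% in the others. Their level was 28360 CPM in control 2, against 13837 and 6069 in the EC-Foxc-DKO mice, and 4819 in the 2 cells of control 1. The remaining cluster was shallow, with a median of 991 UMIs per cell, and was the largest of the 4, with 119 cells. It held 34, 6, 75 and 4 cells in the 4 mice, or 32.7%, 14.3%, 44.1% and 4.49% of their macrophages. A further 32 myeloid cells, 17 of them from EC-Foxc-DKO 2, showed 13 macrophage markers but stayed unnamed and stand outside the class.

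**Figure D4:**
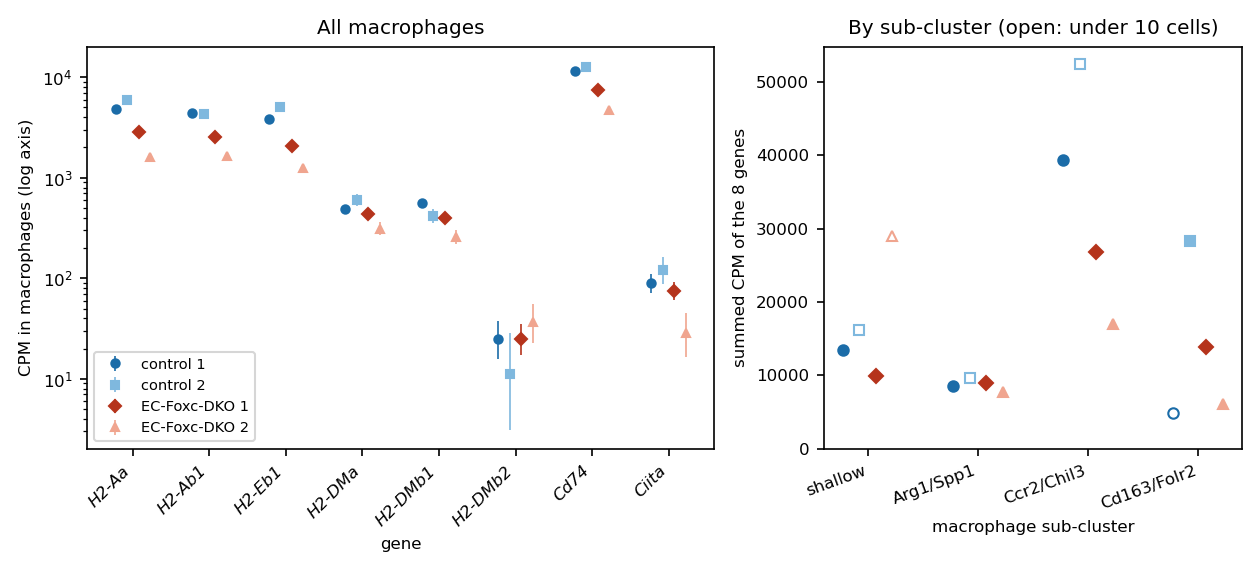
Left, level of each of the 8 genes in macrophages of each mouse (CPM, log axis) with exact 95% Poisson intervals. Right, summed level of the 8 genes in the 4 macrophage clusters of each mouse, with open symbols for under 10 cells; the Arg1 cluster stayed between 7779 and 9691 CPM, and the Ccr2 cluster ran from 17001 to 52398.

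Summed Cd79a, Cd79b and Ms4a1 in macrophages came to 19.4 and 33.9 CPM in the controls, against 51.4 and 34.96 CPM in the EC-Foxc-DKO mice, and the macrophage complement genes C1qa, C1qb and C1qc to 1404 and 13383 against 4867 and 4059. The part of B cell RNA and of the cluster mix in the macrophage levels was not tested. Within the clusters, the Arg1 cells had H2-Aa at 1523, 1145, 1526 and 1247 CPM, with no order by genotype, while the Ccr2 cells had 7421, 9673, 4945 and 2998. Ciita in the Ccr2 cells did not follow H2-Aa, at 150.3, 87.1, 172 and 128 CPM on 4 to 80 UMIs. No cluster met the marker rule for conventional dendritic cells, so such cells, if present, stand inside other clusters. Plasmacytoid dendritic cells, 23 in all, held 16465, 9581, 12369 and 4380 CPM of the 8 genes on 7, 2, 12 and 2 cells.

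Plasma cells stood below follicular B cells in mean Cd74, H2-Aa, H2-Ab1 and Ciita level. In 20 and 16 plasma cells of the EC-Foxc-DKO mice, Cd74 stood at 4016 and 1693 CPM, H2-Ab1 at 868 and 361, H2-Aa at 422 and 88.8 and Ciita at 9.97 and 5.92. In the 6 and 8 plasma cells of the controls, Cd74 stood at 1999 and 1195 CPM, H2-Aa at 25.5 and 29.6, and Ciita gave 0 UMIs. Over all mice there were 5149 Cd74 UMIs per 1000 H2-Ab1 UMIs, against 3998 in follicular B cells and 2815 in macrophages. Prdm1, which encodes Blimp-1, the plasma cell repressor of Ciita, stood at 53.2 to 248.6 CPM in the 4 mice, and the secretory factor Xbp1 at 556 to 1301 CPM. The B cell genes Cd79a, Cd79b and Ms4a1 still summed to 533 to 1433 CPM in them. At the ratio of Cd74 to these genes in B cells, they would come with 106% and 135% of the Cd74 counted in control 1 and control 2. In EC-Foxc-DKO 1 and EC-Foxc-DKO 2 the same ratio came to 96.7% and 134%. Per 1000 H2-Ab1 UMIs over all mice, plasma cells held 400 of H2-Aa, 48.0 of H2-DMa and 10.7 of Ciita. Follicular B cells held 1290, 141 and 62.7. The part of B cell RNA in the Cd74 of plasma cells was not tested.

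Enterocytes carried the set at a level well under that of B cells, and its make-up changed along the villus. Middle enterocytes, of the mid villus, had H2-Aa at 355, 152 and 156 CPM in control 1, control 2 and EC-Foxc-DKO 1, H2-Ab1 at 571, 332 and 335 and Cd74 at 1184, 679 and 590.0. EC-Foxc-DKO 2 had 2 such cells and is left out. Bottom enterocytes, nearest the crypt, had Cd74 at 395, 126, 248 and 731 CPM and H2-Ab1 at 206, 131, 153 and 208 CPM over the 4 mice, and the genotypes overlapped. Top enterocytes, of the villus tip, numbered 299 in control 1 and 127 in EC-Foxc-DKO 1, with 7 and 5 in the others. They had H2-Ab1 at 350.3 and 299.96 CPM in those 2 mice and Cd74 at 803 and 488 CPM, but H2-Eb1 at 17.5 and 17.0 CPM, H2-DMa at 3.24 and 5.09 CPM and H2-DMb1 at 1.89 and 1.13 CPM.

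Set against H2-Ab1, the tip was short of the other chains. Per 1000 H2-Ab1 UMIs, top enterocytes held 53.5 of H2-Eb1, 12.2 of H2-DMa, 4.77 of H2-DMb1 and 0.530 of Ciita. Middle enterocytes held 391, 94.97, 98.6 and 25.6 of the same genes, and bottom enterocytes 457, 201, 162 and 40.2. H2-Aa and Cd74 did not drop in this way, with 479, 577 and 564 of H2-Aa and 2113, 1992 and 2476 of Cd74 per 1000 H2-Ab1 UMIs in top, middle and bottom enterocytes. Prdm1 ran the other way, at 193 and 202 CPM in top enterocytes of control 1 and EC-Foxc-DKO 1, against 4.19, 7.33 and 7.03 CPM in middle and 1.31 to 4.26 CPM in bottom enterocytes. Ctss, the protease that trims the invariant chain, remained at 169 and 152 CPM at the tip.

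Counting error and stray RNA bear on these lower levels. After thinning to 1000 UMIs, 59.7%, 37.4% and 36.2% of middle enterocytes had a Cd74 UMI in control 1, control 2 and EC-Foxc-DKO 1 (95.2%, 84.2% and 86.9% unthinned, median 25594 to 28076.5 UMIs per cell). Gamma delta T cells, which should lack class II, had one in 1.82%, 0.837%, 2.58% and 2.23% of cells after thinning (5.77%, 2.04%, 10.0% and 6.56% unthinned, median 3313 to 6084 UMIs). If all B cell RNA in enterocytes were free RNA of B cells of the same mouse, it would bring 0.321%, 0% and 17.99% of the Cd74 in middle enterocytes and 0.837%, 0%, 25.3% and 1.49% in bottom enterocytes. The C1q genes, treated alike against macrophages, would bring at most 1.43% in any of the 3 enterocyte types. The other epithelial cells were lower, with a summed level of 445 ± 170 CPM in tuft cells (n = 3), 274 ± 99.2 in crypt cells (n = 4) and 264 ± 87.8 in goblet cells (n = 3). In them the same B cell ratio came to 5.77% to 21.7% of Cd74 in crypt cells and 27.0% to 52.1% in tuft cells. 

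No class II gene passed the test between genotypes in epithelial cells. Over the whole class Cd74 stood at 635 and 250.1 CPM in the controls, against 338 and 451 in the EC-Foxc-DKO mice, and H2-Aa at 174 and 49.7 against 88.8 and 76.5. The log2 fold changes of the 7 genes that passed the filter ran from -0.65 to -0.20, with edgeR adjusted p of 0.9998 for each, and their median was -0.48 against -0.00 over all genes. None of the 7 lay below or above both controls, as 12.0% and 10.3% of the 12362 genes did. Epithelial cells numbered 972, 79, 646 and 759 in control 1, control 2, EC-Foxc-DKO 1 and EC-Foxc-DKO 2. Of these, 299, 7, 127 and 5 were top enterocytes and 290, 19, 213 and 2 middle enterocytes. The part of this mix in the fold changes was not tested. The fit called 0 genes, with 172 at an unadjusted p under 0.05 and 7 by DESeq2. H2-DMb2 was filtered out, at 0.179 and 0 CPM in the controls, against 1.70 and 0.467 CPM in the EC-Foxc-DKO mice. The 5 B cell RNA genes tested all lay above both controls, and the summed B cell genes came to 1.68 and 0.994 CPM against 23.1 and 6.54. Their part in the epithelial class II levels was not tested. In bottom enterocytes alone the median of the 7 genes was 0.16 against 0.01 over all genes, with 0 of 9756 genes called and 318 at an unadjusted p under 0.05.

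In stromal, endothelial and glial cells the class II level came from a few cells. Blood endothelial cells held 579, 13.4, 1175 and 17.0 CPM of the 8 genes in control 1, control 2, EC-Foxc-DKO 1 and EC-Foxc-DKO 2, so each genotype had 1 high and 1 low mouse. In control 1, 1 of 30 cells held 91.8% of the member UMIs. In EC-Foxc-DKO 1, 7 of 86 cells had 5 or more such UMIs, B cell RNA at the ratio of that mouse's B cells came to 94.4% of the Cd74, and 11 of 15 H2-DMb UMIs were H2-DMb2 (73.3%), the B cell copy. Enteric glia held 60.2, 3508, 1564 and 30.7 CPM. In control 2, 1 of 19 glia held 98.9% of the UMIs, and C1q RNA at the macrophage ratio came to 113% of the Cd74. In EC-Foxc-DKO 1, 1 of 39 glia held 66.1% and the B cell ratio came to 86.1%. Mesenchymal cells held 46.6 CPM in control 2 and 2456 CPM in EC-Foxc-DKO 1, where 1 of 48 cells held 78.8% of the UMIs and the B cell ratio came to 32.4% of the Cd74. Smooth muscle cells and pericytes of EC-Foxc-DKO 1 held 854 CPM, with the B cell ratio at 116% of the Cd74. The part of B cell or macrophage RNA in the class II levels of these cell types was not tested.

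**Figure D5:**
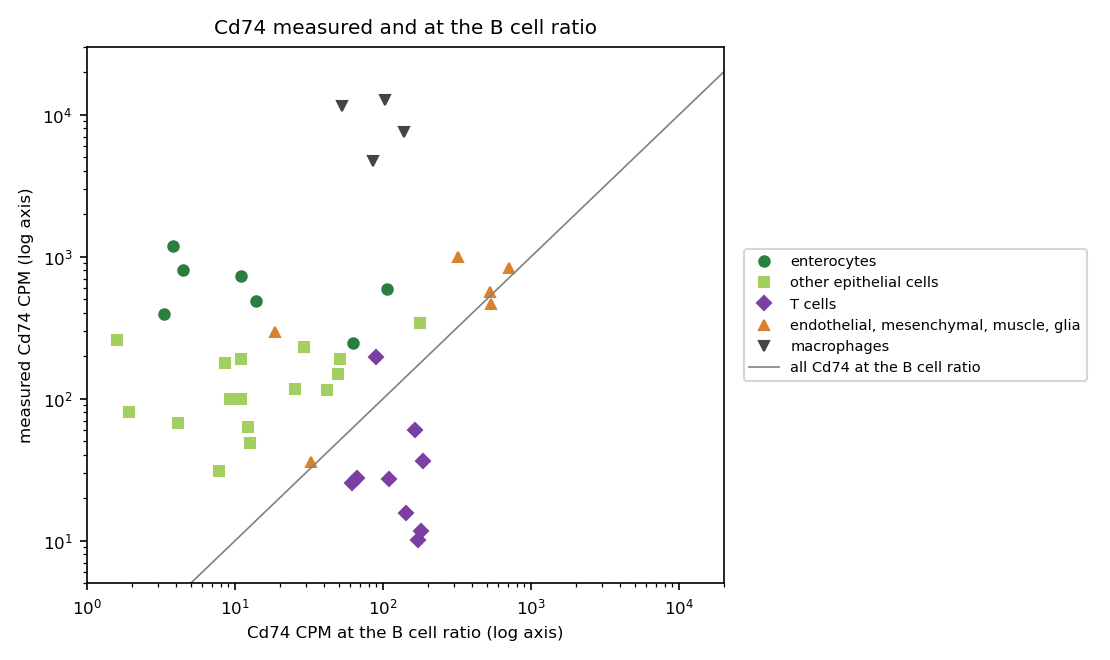
Cd74 level in a cell type of a mouse (vertical, CPM, log axis) against the Cd74 that B cell RNA there would bring at the ratio of that mouse's B cells (horizontal, CPM, log axis), with a line where both are equal. Each point is 1 mouse and cell type of 10 or more cells, among epithelial, T, endothelial, mesenchymal, muscle and glial types and macrophages. Types without a UMI of Cd74 or of the B cell genes have no point, such as glia of control 2, with Cd74 at 1443 CPM. Macrophages and most enterocytes lay far above the line, and endothelial cells, muscle cells and glia of EC-Foxc-DKO 1 lay near it; T cell points lay mostly below it, and Cd79b, part of the B cell sum, is counted in T cells too.

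Neither the endothelial nor the glial fit called a class II gene. In endothelial cells edgeR called 0 of 4131 genes, with 189 at an unadjusted p under 0.05 and 2 by DESeq2, and 3 members passed the filter. H2-Aa had a log2 fold change of 1.72 (SE 1.22), H2-Ab1 of 1.36 (SE 1.12) and Cd74 of 1.24 (SE 1.31), each with an edgeR adjusted p of 0.9997. Without EC-Foxc-DKO 1 these turned to -6.08, -6.05 and -2.87. In glia edgeR called 0 of 1644 genes, with 38 at an unadjusted p under 0.05 and 0 by DESeq2, and the 4 members tested ran from -1.65 (SE 1.23) for H2-Ab1 to -0.75 (SE 1.30) for Cd74, each with an edgeR adjusted p of 0.9998. Without control 2 these came to between 2.38 and 7.29. None of the members lay below or above both controls in either class, against 15.2% and 17.3% of genes in endothelial cells and 12.3% and 14.1% in glia. Stromal cells were not tested because EC-Foxc-DKO 2 had 3 of them.

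T cells were the 1 class in which a member passed the test. Cd74 stood at 14.5 and 23.6 CPM in the controls, against 94.5 and 87.5 CPM in the EC-Foxc-DKO mice, on 5, 10, 135 and 26 UMIs. The class also took in cells named innate lymphoid cells, which numbered 1, 4, 8 and 1 in the same order. They gave 0, 6, 25 and 12 of these Cd74 UMIs, so 1 such cell held 12 of the 26 in EC-Foxc-DKO 2. The log2 fold change of Cd74 was 2.29 (SE 0.38), with an edgeR adjusted p of 0.0478, as 1 of 3 genes called higher (0.0582% of 5152 genes) beside 1 called lower (0.0194%), or 4 in all (0.0776%), with 178 at an unadjusted p under 0.05. Without single mice the log2 fold change was 1.99 to 2.73. Those fits leave 1 mouse in a group, whose spread is taken from the other genotype, so they cannot show that the call holds. The call was lost with DESeq2 (2.30), with DESeq2's size factors in edgeR (2.29) and with crossed replicate pairs as a block (2.27). It was also lost with the mitochondrial limit at 20% (1.33), with doublets removed (2.605) and with the class II genes kept for clustering (4.05). H2-Ab1, at 20.3 and 16.5 CPM against 30.8 and 30.3, had a log2 fold change of 0.80 (SE 0.49), and H2-DMa, at 43.6 and 30.7 against 33.6 and 64.0, of 0.28 (SE 0.41), both with an edgeR adjusted p of 0.9976. Of these 3 genes, Cd74 and H2-Ab1 lay above both controls, as did 12.2% of all genes tested. H2-Aa and H2-Eb1 did not pass the filter, at 8.71 and 9.45 CPM against 25.9 and 20.2 and at 8.71 and 4.72 against 19.6 and 23.6.

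The T cell mix and a few cells moved with that call. CD4+ T cells numbered 2 and 8 in the controls, against 64 and 13 in the EC-Foxc-DKO mice, and in EC-Foxc-DKO 1 they had Cd74 at 197 CPM, with 69.3% of their member UMIs in 1 cell. In gamma delta T cells alone Cd74 stood at 11.7 and 10.0 CPM against 36.4 and 27.5, on 3, 3, 30 and 6 UMIs, and did not pass the filter. C1q RNA in T cells came to 2.90 and 9.45 CPM against 9.10 and 26.9, and the summed B cell genes to 58.1 and 47.2 against 61.6 and 84.2. Cd79b alone stood at 22.9 to 58.6 CPM in gamma delta T cells. The part of innate lymphoid cells and of other cells' RNA in the Cd74 level of the T cell class was not tested. H2-DMa stood apart from the rest of the set in T cells, at 41.5 ± 15.6 CPM in gamma delta T cells (n = 4), beside 39.4 CPM in middle enterocytes.

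Other genes of the pathway, taken from fixed lists, gave no call in any class. In B cells the chains H2-Oa, H2-Ob and H2-Eb2 all lay below both controls (3 of 3, median log2 fold change -0.34), as did 21.2% of all genes tested. In follicular B cells alone 0 of these 3 did, with a median of 0.0066. In the B cell class, 1 of 4 invariant chain processing and peptide loading genes lay below and 2 above, with a median of 0.22. Of all genes tested there, 21.2% lay below both controls and 14.2% above. Of the factors that bind the X and Y boxes (RFX and NF-Y subunits and Creb1), 2 of 5 lay below and 1 above in B cells. Of 6 interferon gamma signaling genes there, 2 lay below and 0 above, with a median of 0.06. March1, the ubiquitin ligase that removes class II from the surface, had a log2 fold change of -0.69. In macrophages none of 5 loading genes and none of 5 promoter-binding factors lay wholly below or above the controls, so that Ctss, at 2255 and 1290 CPM against 1661 and 1352, did not share the order of H2-Aa. Of 7 interferon gamma signaling genes 1 lay below and 2 above, and of the 3 costimulators tested 1 lay below. Of all genes of the macrophage fit, 13.9% lay below both controls and 16.9% above. Cd83, an activation marker that stabilises class II, stood at 123 and 446 CPM in control macrophages and 151 and 133 in EC-Foxc-DKO macrophages. In epithelial cells 1 of 7 interferon gamma signaling genes lay below and 0 above, with a median of -0.10. Of all genes tested in that class, 12.0% lay below both controls and 10.3% above.

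The genes whose pattern over the 21 cell types was most like the summed class II level were Kmo (Pearson r 0.882), Kynu (0.874), Gm15987 (0.852), Pld4 (0.847), Gm6377 (0.822), Il4i1 (0.820), Fcrla (0.805), H2-Oa (0.801), Cd40 (0.801) and Cd83 (0.799), out of 12632 genes with 100 or more UMIs, on log2(CPM + 1). Kmo and Kynu encode enzymes of tryptophan breakdown along the kynurenine path, Il4i1 a secreted amino acid oxidase, and Cd40 the receptor for T cell help. Of the 8 genes themselves, H2-Ab1 was nearest the sum it is part of (0.978), H2-DMb2 stood at 0.810 and H2-DMa at 0.748, in place 35. The points share libraries, depth and cells, and with a pseudocount of 10 CPM, 6 of the 10 genes were the same.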

How the data were processed

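The counts deposited by the authors are UMIs per gene and barcode in 1 matrix for each of 4 mice, made from 3′ libraries against mm10; per the submitters' processing notes the tool was Cell Ranger 4.0.0. A joined table of the 4 libraries was read for its list of genes alone. Its columns are named by barcode and show no sample, and its values were not used. The members and all gene lists were chosen with earlier results of these data known.

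Barcodes with at most 10% mitochondrial UMIs, over the 18407 genes of the authors' joined table, were kept. Counts were scaled to 10000 per cell and clustered by Leiden in 2 rounds (scanpy 1.11.5), without the 8 genes and the other class II chains. A cluster was named where 3 or more markers and 50% of a type's list were detected (at least 2 times the level of other cells and in 10% of cells). It stayed unnamed where markers of another class outnumbered its own among its 10 leading genes. It also stayed unnamed where its cells were shallow for their mouse and no marker of its type was among those genes. These rules were set after the clusters were seen. An automatic doublet caller marked 0.232% of cells and was taken not to have worked, so doublets were kept and 5.2% of cells were removed by score rank in an alternative. The named genes are the 8 members, the fixed pathway lists and the 10 genes most like the summed members.

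UMIs were summed per mouse and cell class with at least 10 cells in each mouse and tested with edgeR 4.0.16 (limma 3.58.1, R 4.3.3; filterByExpr, TMM, quasi-likelihood, Benjamini-Hochberg threshold 0.05). The mouse is the replicate (2 against 2). DESeq2 1.42.0, other size factors, no filter, a mitochondrial limit of 20%, other clusterings, a replicate block and leaving out each mouse were alternatives. The fits were tested on simulated data. Shares of cells with a UMI were computed raw and after drawing 1000 UMIs per cell. Free RNA was estimated from the ratio of Cd74 to B cell genes (Cd79a, Cd79b and Ms4a1) or C1q genes in the same mouse.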

Additional observations from a re-analysis of the deposited data

Results flagged for a closer look

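Class II genes lay on opposite sides in T cells and in B cells or macrophages of the same mice, and these differences were not tested. In T cells H2-Aa, H2-Ab1, H2-Eb1 and Cd74 were above both controls in both EC-Foxc-DKO mice, with log2 ratios of mean CPM of 1.34, 0.73, 1.68 and 2.25. In B cells all 4 genes lay below both controls in both EC-Foxc-DKO mice, with ratios of -0.61, -0.61, -0.68 and -0.56. Of all genes tested, 12.2% lay above both controls in T cells, 21.2% lay below them in B cells and 13.9% in macrophages. H2-Aa and H2-Eb1 did not pass the T cell filter. The log2 ratio in T cells exceeded that in B cells by 1.95 for H2-Aa, 1.34 for H2-Ab1, 2.36 for H2-Eb1 and 2.81 for Cd74. Against macrophages, where the ratios were -1.26, -1.06, -1.42 and -0.99, the gap was 2.61 for H2-Aa, 1.79 for H2-Ab1, 3.101 for H2-Eb1 and 3.24 for Cd74. Macrophage values of H2-Aa and H2-Eb1 chose the genes described, so these gaps are in part fixed by that choice and are given as a description. T cell values rest on 2 to 7 UMIs of each classical chain in the controls. The chaperone chain H2-DMb2 lay below both controls in B cells (-0.65) and above them in macrophages (0.77) and epithelial cells (3.60), a gap of 1.42 and 4.25. Of all genes tested, 16.9% lay above both controls in macrophages and 10.3% in epithelial cells, where H2-DMb2 did not pass the filter. The macrophage order rests on 24.8 CPM in control 1 against 24.9 in EC-Foxc-DKO 1, and the mean difference was -7.89 CPM with the mitochondrial limit at 20%. The epithelial ratio is over controls at 0.179 and 0 CPM. In epithelial cells the summed B cell genes moved with it, at 1.68 and 0.994 CPM in the controls and 23.1 and 6.54 CPM in the EC-Foxc-DKO mice, and their part was not tested.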

How the results depend on the processing

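Of 460 values for single genes under the alternatives, 392 stayed the same and 26 log2 fold changes reversed. For log2 fold changes, the same means that direction and call were kept. For macrophage CPM differences and thinned Cd74 shares, it means a shift under the SD over mice. Of the other values, such as counts of called genes, summed levels and H2-DMb2 shares, 136 stayed the same and 42 moved. Counts of called genes moved most. In B cells 0 became 2 with DESeq2, 30 with no filter on low counts and 1 to 138 without single mice. In T cells 4 became 1 with DESeq2, 1 with DESeq2's size factors in edgeR, 0 with the mitochondrial limit at 20%, 33 with no filter, 0 with doublets removed, 0 with class II genes kept for clustering, 0 in gamma delta T cells alone and 16 to 78 without single mice. In epithelial cells 0 became 7 with DESeq2, 83 with no filter and 0 to 59 without single mice. In endothelial cells 0 became 2 with DESeq2, 105 with no filter, 2 with doublets removed and 5 to 146 without single mice. In glia 0 became 50 with no filter and 0 to 48 without single mice. With class II genes kept for clustering, the summed level in T cells was 524 CPM in place of 161. With a pseudocount of 10 CPM, 6 of the 10 genes most like the summed members were the same. Without EC-Foxc-DKO 1, the B cell log2 fold changes were -1.07 for Cd74, -1.17 for H2-Aa, -1.12 for H2-Ab1 and -1.30 for H2-Eb1. They rest on 1 EC-Foxc-DKO mouse with 56 B cells, 23 of them germinal center cells.

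Reversed log2 fold changes were as follows. In follicular B cells alone Ciita was 0.060 and H2-DMa 0.0040. In T cells H2-DMa was -0.0070 with the mitochondrial limit at 20% and -0.058 without EC-Foxc-DKO 2 (0.85 at most without single mice). In epithelial cells without control 1, Cd74 was 0.81, Ciita 1.14, H2-Aa 0.89, H2-Ab1 0.28, H2-DMa 0.049, H2-DMb1 0.61 and H2-Eb1 0.037, and without EC-Foxc-DKO 2 Ciita was 0.41. The lowest epithelial values without single mice were -0.78 for Cd74, -1.29 for Ciita, -1.17 for H2-Aa, -1.06 for H2-Ab1, -0.83 for H2-DMa, -0.99 for H2-DMb1 and -1.10 for H2-Eb1. In bottom enterocytes alone Cd74 was 0.93, H2-Aa 0.77, H2-Ab1 0.11, H2-DMb1 0.16 and H2-Eb1 0.28. In endothelial cells without EC-Foxc-DKO 1, Cd74 was -2.87, H2-Aa -6.08 and H2-Ab1 -6.05, and without control 1 they were 9.42, 8.19 and 4.62. In glia Cd74 was 0.030 with the limit at 20%, 0.13 without EC-Foxc-DKO 2 and 3.71 without control 2, and without control 2 H2-Aa was 7.29, H2-Ab1 2.38 and H2-Eb1 6.64. Without EC-Foxc-DKO 1 these 4 were -4.70, -7.99, -8.09 and -7.49. The cause was not tested. Leaving out a mouse leaves 1 in its group, whose spread is then taken from the other genotype.

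Whether the replicate numbers pair the mice could not be decided, because each genotype gave only 1 difference between its 2 mice. Over genes, these differences correlated between genotypes at -0.06 in B cells, -0.07 in T cells, 0.21 in epithelial cells and -0.20 in macrophages. With a replicate block the called genes were 3 in B cells, 13 in T cells, 2 in epithelial cells and 13 in endothelial cells. With crossed pairs they were 14 in B cells, 0 in T cells, 1 in epithelial cells and 3 in endothelial cells. Cell number limits control 2 most, with 348 kept cells, whereas the median UMIs per kept cell were lowest in EC-Foxc-DKO 1, at 4254.5. With 2 mice per group, the mix of macrophage clusters and the genotype cannot be told apart.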
